A study of Mus musculus with 16 samples.

Results

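The 10 genes described here mark T cells and natural killer (NK) cells or carry their signals: Cd3e, Cd3g, Cd4, Cd8a, Lck, Il7r, Tcf7, Stat4, Nkg7 and Klrd1. They were chosen by name, and all 10 were found among the 13733 genes of a bulk RNA-seq table of mouse knee joint cells. The table covers 16 libraries, 4 in each of 4 groups. WT mice were C57BL/6, and Trem2-/- mice carried a germline null allele of Trem2, a myeloid receptor, on the same strain (C57BL/6J-Trem2 em2Adiuj/J), so that the allele was in every cell type. Mice were 10 weeks old when a single tibial compression ruptured the anterior cruciate ligament (ACL) of the right knee, and joints were taken uninjured (D0) or 7 days after injury (D7). The methods give male mice, and buprenorphine and saline were injected right after injury. Groups are named by genotype and day, such as WT D0 or Trem2-/- D7. The sample labels differ from the methods in giving an age of 16 weeks and a protocol of homogenized joints, where the methods describe enzyme-released joint cells. The protocol in the labels also names control and T1DM (diabetic) mice and another library kit. The methods mention no diabetic mice, and the sample titles give only genotype, injury and a number. The methods also refer to the cell isolation used for single-cell sequencing, which ended in a separation by CD45, the leukocyte antigen, and do not say whether the bulk libraries were made before or after that separation.

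T cells recognise antigen through the T cell receptor, which signals through the CD3 chains with the help of the co-receptors CD4 or CD8 and the kinase Lck. IL-7 receptor keeps naive and memory T cells alive, the transcription factor encoded by Tcf7 sets up and maintains the T lineage, and STAT4 passes on the IL-12 signal in T cells, NK cells and some myeloid cells. NK cells lack CD3 and kill through cytotoxic granules, in whose membrane Nkg7 sits, while Klrd1 (CD94) pairs with NKG2 chains to read MHC class I on target cells. In joints, lymphocytes are a small part of the cells of healthy synovium and can gather there after injury or in arthritis.

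Libraries held between 11567073 and 32867818 reads, so that 3 reads were worth 0.101 to 0.250 CPM. Values are CPM (reads scaled to a common library size) after TMM normalization, a scaling for library composition. Trem2 had 2.51 to 5.61 CPM in WT D0 and 10.7 to 22.5 CPM in WT D7, against 0.948 to 2.68 CPM in Trem2-/- D0 and 3.42 to 4.84 CPM in Trem2-/- D7. Trem2 reads were thus fewer on average but still present in Trem2-/- mice, and at D0 the ranges overlapped. The WT D0 libraries were uneven: replicate 1 had the lowest value of its group for 9 of the 10 genes, and replicate 3 the highest for 7 of them. On the first principal component of all genes tested, which held 69.3% of the variance, WT D0 replicates 1 and 4 stood at -9.57 and -2.64, nearest to the D7 libraries at 20.5 to 54.8, while the other D0 libraries stood at -72.1 to -35.2. Results that change without one of these libraries are given with and without it.

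Cd3e and Cd3g both lie on chromosome 9 (GRCm38, minus strand), Cd3e at 44998740 to 45009627 and Cd3g at 44969572 to 44980431. Lck lies on chromosome 4 (129548344 to 129573641, minus strand) and Stat4 on chromosome 1 (51987148 to 52107189, plus strand). These are 4 of the 7 genes that fell from D0 to D7 in Trem2-/- mice, and the 250 bases before their RefSeq start sites (GRCm38.p6) are shown to set promoters of genes that moved together side by side. Capitals mark matches on either strand to 4 short motifs, ETS (GGAAG or CTTCC), T-box (AGGTGT or ACACCT), RUNX (TGTGGT or ACCACA) and TCF/LEF (CTTTGA or TCAAAG), with no match sharing bases with another in these windows.
Cd3e, chr9:45009612-45009861, minus strand: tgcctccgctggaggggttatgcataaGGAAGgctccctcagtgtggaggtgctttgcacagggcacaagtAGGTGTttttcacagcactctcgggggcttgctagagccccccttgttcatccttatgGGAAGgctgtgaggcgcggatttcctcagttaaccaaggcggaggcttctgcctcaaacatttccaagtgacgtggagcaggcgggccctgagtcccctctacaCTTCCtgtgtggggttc
Cd3g, chr9:44980432-44980681, minus strand: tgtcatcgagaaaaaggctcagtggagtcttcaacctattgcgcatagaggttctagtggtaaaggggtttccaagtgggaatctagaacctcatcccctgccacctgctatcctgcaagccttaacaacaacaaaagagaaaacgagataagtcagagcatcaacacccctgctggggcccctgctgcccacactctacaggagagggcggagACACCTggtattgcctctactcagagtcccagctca
Lck, chr4:129573642-129573891, minus strand: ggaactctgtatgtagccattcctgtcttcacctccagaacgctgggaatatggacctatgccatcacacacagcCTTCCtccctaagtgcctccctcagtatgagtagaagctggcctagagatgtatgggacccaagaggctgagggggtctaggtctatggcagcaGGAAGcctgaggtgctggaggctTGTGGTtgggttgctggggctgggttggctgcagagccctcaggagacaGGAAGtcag
Stat4, chr1:51986898-51987147, plus strand: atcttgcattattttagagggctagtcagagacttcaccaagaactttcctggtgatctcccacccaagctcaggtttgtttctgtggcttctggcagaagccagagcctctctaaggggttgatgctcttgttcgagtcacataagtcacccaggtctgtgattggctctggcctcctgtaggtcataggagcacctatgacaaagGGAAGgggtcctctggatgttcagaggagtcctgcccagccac

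The Cd3e window held 3 ETS matches and 1 T-box match, the Cd3g window 1 T-box match, the Lck window 3 ETS matches and 1 RUNX match, and the Stat4 window 1 ETS match. RefSeq gives Lck and Stat4 another start site each, whose windows, not shown, held 1 ETS match and none of the other motifs. Among 32851 mouse windows of the same length, 64.1% held the ETS letters, 11.8% the T-box letters, 14.0% the RUNX letters and 13.8% the TCF/LEF letters. No TCF/LEF match was found in the 4 windows. These matches describe letters, not bound sites.

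Levels per length were lowest for the CD3 and co-receptor genes. Per kilobase of exon, Nkg7 had the highest mean level in WT D0 at 24.8 ± 13.2 CPM per kb (SD, n = 4). It was followed by Stat4 at 10.7 ± 3.75, Il7r at 5.05 ± 1.71, Tcf7 at 3.59 ± 0.608, Lck at 3.38 ± 1.08 and Klrd1 at 1.93 ± 1.04 CPM per kb. Cd3g, Cd8a, Cd4 and Cd3e were between 0.371 and 0.541 CPM per kb, and these 4 did not differ beyond their SDs. Neither did Il7r from Tcf7, nor Tcf7 from Lck. In Trem2-/- D7 Nkg7 was again first at 4.48 ± 0.907 CPM per kb, followed by Il7r at 2.79 ± 0.446, Tcf7 at 2.52 ± 0.401 and Stat4 at 2.48 ± 0.163 CPM per kb, which did not differ from each other beyond their SDs. The defining T cell genes were thus present in every library but at few reads: Cd3e had 4 to 47 reads a library, and Cd8a had 1 to 51.

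**Figure D1:**
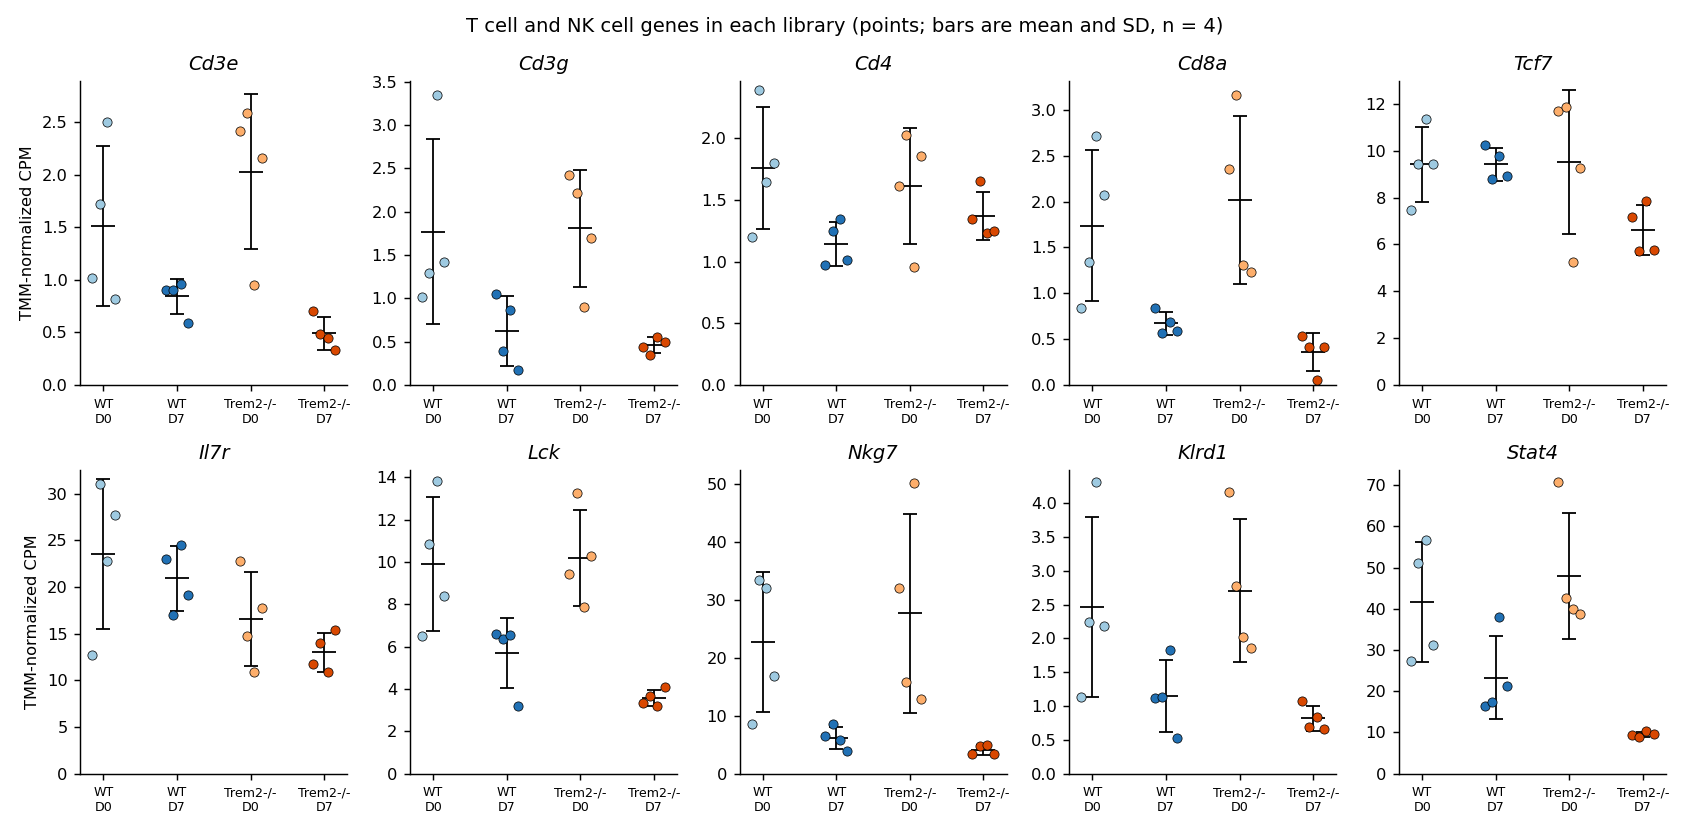
TMM-normalized CPM of the 10 genes (1 panel each, linear axes from 0) in the 16 libraries, by group, with the mean and SD of 4 libraries. Stat4 sits between 8.89 and 10.4 CPM in Trem2-/- D7, below every library of the other groups, while Tcf7 is level between WT D0 and WT D7.

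The first question was what ACL injury does to these genes in the WT joint by D7. Most were lower after injury: 7 of the 10 passed the study's rule (limma on log2(CPM + 1), unadjusted p under 0.05 with a minimum fold change), all of them lower at D7. They were Stat4, Nkg7, Lck, Cd3g, Cd8a, Klrd1 and Cd4, and 5 of them had a Benjamini-Hochberg adjusted p under 0.05. For comparison, 18.2% of the 13173 genes tested were lower by the rule and 12.6% by adjusted p. The median log2 fold change of the 10 genes was -0.65, against -0.04 for all genes tested. Only Cd8a had WT D7 values entirely below WT D0, which 9.34% of the genes tested did.

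In Trem2-/- mice the same comparison also gave 7 lower genes, now Stat4, Nkg7, Lck, Cd3e, Cd3g, Cd8a and Klrd1. All 7 had an adjusted p under 0.05 and values at D7 entirely below those at D0, and the median log2 fold change of the 10 was -0.99. The background was higher too, since 27.9% of genes tested were lower by the rule, 27.2% by adjusted p and 26.3% without overlap. Cd3e and Cd8a reached the filter of 1 CPM in 4 libraries through D0 libraries only, so that lower D7 values were built into their selection. The same holds in part for Cd3g, which reached 1 CPM in 4 WT D0, 3 Trem2-/- D0 and only 1 WT D7 library. Of the 7 genes that reached 1 CPM in at least 4 D7 libraries, 5 were lower in WT and 4 in Trem2-/- mice. In bulk CPM, which are relative, fewer T or NK cells, less transcript per cell and more RNA from other cells cannot be told apart.

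**Figure D2:**
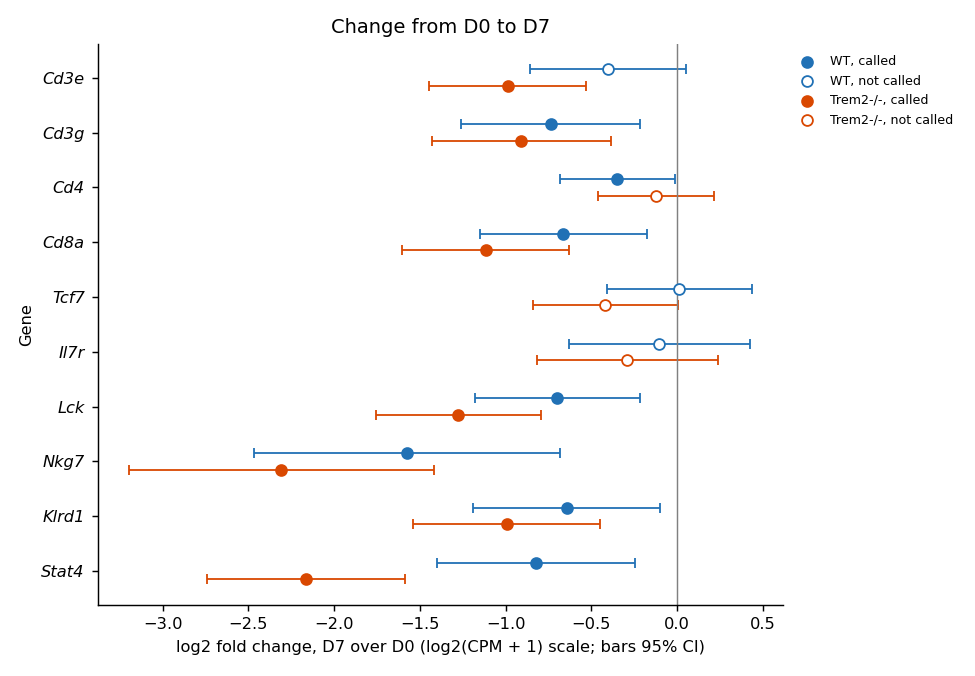
log2 fold change from D0 to D7 of each gene in WT and Trem2-/- mice, on the log2(CPM + 1) scale, with 95% confidence intervals, and filled points for genes called by the study's rule. The Trem2-/- points of Stat4 (-2.16) and Nkg7 (-2.31) lie farthest to the left, and the intervals of Tcf7 and Il7r cross 0 in both genotypes.

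Cd3e and Cd3g encode signalling chains of the T cell receptor complex. Cd3e had 1.02, 1.72, 2.50 and 0.817 CPM in WT D0 replicates 1 to 4, and 0.905, 0.906, 0.965 and 0.594 CPM in WT D7. Trem2-/- mice had 2.42, 2.59, 0.954 and 2.16 CPM at D0, and 0.706, 0.482, 0.448 and 0.334 CPM at D7. WT D0 replicate 4 lay within the WT D7 range, whereas every Trem2-/- D7 library was below every Trem2-/- D0 library. The log2 fold change was -0.40 (SE 0.21, limma adjusted p = 0.161) in WT and -0.99 (SE 0.21, adjusted p = 0.00137) in Trem2-/- mice. The mean CPM in Trem2-/- mice was 4.13-fold lower at D7, a larger ratio than the fitted fold, which the added 1 CPM pulls toward 0 at such levels. An annotated gene on the opposite strand, Gm48719, shares 1.55% of the 75-base stretches of Cd3e transcripts, and how the counting treated strand is not stated. Without WT D0 replicate 1 or 4, Cd3e passed the rule in WT as well, at -0.49 and -0.54, and so it did in edgeR with all libraries (-0.84, adjusted p = 0.105).

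Cd3g ranged from 1.02 to 3.35 CPM in WT D0 and from 0.178 to 1.04 CPM in WT D7, where the lowest library held 3 reads. Trem2-/- values ranged from 0.895 to 2.42 CPM at D0 and from 0.345 to 0.560 CPM at D7. Both genotypes had lower values after injury, without overlap in Trem2-/- mice and with a slight overlap in WT. The log2 fold change of Cd3g was -0.74 (SE 0.25, limma adjusted p = 0.0356) in WT and -0.91 (SE 0.25, adjusted p = 0.00603) in Trem2-/- mice.

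On chromosome 6, Cd4 (124864692 to 124888221, minus strand) and Cd8a (71373427 to 71379173, plus strand) encode the co-receptors of helper and cytotoxic T cells, and Lck is the kinase that both carry to the receptor. Cd8a had 0.837, 1.34, 2.71 and 2.07 CPM in WT D0 and 0.836, 0.566, 0.689 and 0.594 CPM in WT D7. It had 2.35, 3.16, 1.31 and 1.24 CPM in Trem2-/- D0 and 0.538, 0.413, 0.0560 and 0.417 CPM in Trem2-/- D7, where replicate 3 held 1 read. Neither genotype's D7 values overlapped its D0 values, although WT D0 replicate 1 and WT D7 replicate 1 were nearly equal. The Cd8a log2 fold change was -0.66 (SE 0.23, limma adjusted p = 0.0410) in WT and -1.12 (SE 0.23, adjusted p = 0.000903) in Trem2-/- mice.

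Cd4 was called in WT only, and its difference between genotypes was not called. It ranged from 1.20 to 2.39 CPM in WT D0, 0.975 to 1.34 CPM in WT D7, 0.954 to 2.02 CPM in Trem2-/- D0 and 1.23 to 1.65 CPM in Trem2-/- D7. The groups overlapped in both genotypes. Its log2 fold change was -0.35 (SE 0.16, limma adjusted p = 0.104) in WT, and the call was lost when any of 6 of the 8 WT libraries was left out, with values of -0.37 to -0.24 without them. It was also lost with a pseudocount of 5, with quantile normalization and with only the WT groups in the fit. The log2 fold change of Cd4 in Trem2-/- mice was -0.12 (SE 0.16, adjusted p = 0.527).

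Lck had 6.51, 10.8, 13.8 and 8.39 CPM in WT D0 and 6.62, 6.34, 6.55 and 3.21 CPM in WT D7. The Trem2-/- values were 9.41, 13.3, 7.87 and 10.3 CPM at D0 and 3.36, 3.65, 3.19 and 4.09 CPM at D7. The Trem2-/- D7 libraries were close together and far below their D0 libraries, while in WT the lowest D0 library fell among the D7 values. Lck fell by 0.70 on the log2 scale (SE 0.23, limma adjusted p = 0.0318) in WT and by 1.28 (SE 0.23, adjusted p = 0.000314) in Trem2-/- mice.

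Il7r (chromosome 15, 9505788 to 9530176, minus strand) and Tcf7 (chromosome 11, 52252371 to 52283014, minus strand), genes of naive and memory T cells and of early lymphoid cells, did not pass the rule for injury in either genotype with all libraries in the limma fit. Il7r had 12.7, 31.0, 22.8 and 27.7 CPM in WT D0 and 23.1, 17.0, 24.5 and 19.1 CPM in WT D7. It had 22.8, 14.8, 10.9 and 17.8 CPM in Trem2-/- D0 and 11.8, 14.0, 10.9 and 15.4 CPM in Trem2-/- D7. D0 and D7 overlapped in both genotypes, with a log2 fold change of -0.11 (95% CI -0.63 to 0.42) in WT and -0.29 (95% CI -0.82 to 0.24) in Trem2-/- mice.

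Tcf7 had 7.47, 9.42, 11.4 and 9.42 CPM in WT D0 and 10.2, 8.78, 9.79 and 8.91 CPM in WT D7. It had 11.7, 11.9, 5.25 and 9.27 CPM in Trem2-/- D0 and 7.16, 5.72, 7.84 and 5.75 CPM in Trem2-/- D7. WT means were 9.42 ± 1.59 and 9.43 ± 0.701 CPM (SD, n = 4), a log2 fold change of 0.01 (95% CI -0.41 to 0.43). In Trem2-/- mice the log2 fold change of Tcf7 was -0.42 (95% CI -0.84 to 0.00, limma adjusted p = 0.0871). Replicate 3 of Trem2-/- D0 lay below the D7 libraries of its genotype, and without it the Tcf7 value was -0.65 (adjusted p = 0.00306). Without Trem2-/- D7 replicate 3 it was -0.495 and also passed the rule. With all libraries Tcf7 passed the rule in Trem2-/- mice under quantile normalization (-0.43, adjusted p = 0.0732), under eBayes without trend (-0.42, adjusted p = 0.0827) and in edgeR (-0.52, adjusted p = 0.0559).

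Stat4, the IL-12 signal transducer, showed one of the largest changes. It had 27.2, 51.1, 56.8 and 31.3 CPM in WT D0 and 16.4, 17.5, 38.0 and 21.4 CPM in WT D7. It had 70.6, 42.6, 39.8 and 38.8 CPM in Trem2-/- D0 and 9.44, 8.89, 10.4 and 9.68 CPM in Trem2-/- D7. WT D7 replicate 3 stood among the WT D0 libraries, whereas the 4 Trem2-/- D7 libraries lay close together and below all others. The log2 fold change of Stat4 was -0.82 (SE 0.27, limma adjusted p = 0.0344) in WT and -2.16 (SE 0.27, adjusted p = 2.96e-05) in Trem2-/- mice, where its mean was 4.99-fold lower at D7. An annotated gene on the same strand, Gm28177, shares 19.5% of the 75-base stretches of Stat4 transcripts. Counting could have split or dropped reads there, so the Stat4 level is uncertain.

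Nkg7 (chromosome 7, 43437073 to 43438249, plus strand) and Klrd1 (chromosome 6, 129591782 to 129598775, plus strand) mark NK cells and cytotoxic T cells. Nkg7 had 8.54, 33.4, 32.1 and 16.8 CPM in WT D0 and 6.55, 8.55, 5.83 and 3.98 CPM in WT D7. It had 32.1, 15.7, 50.0 and 12.8 CPM in Trem2-/- D0 and 3.43, 4.76, 4.87 and 3.34 CPM in Trem2-/- D7. D0 libraries were widely scattered in both genotypes, and WT D0 replicate 1 fell just below the highest WT D7 library. Nkg7 fell by 1.58 on the log2 scale (SE 0.42, limma adjusted p = 0.0136) in WT and by 2.31 (SE 0.42, adjusted p = 0.000372) in Trem2-/- mice, a 6.75-fold lower mean.

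Klrd1 ranged from 1.14 to 4.31 CPM in WT D0, 0.535 to 1.83 CPM in WT D7, 1.85 to 4.17 CPM in Trem2-/- D0 and 0.667 to 1.08 CPM in Trem2-/- D7. The D7 values lay below all D0 values in Trem2-/- mice, and in WT only WT D7 replicate 3 exceeded the lowest D0 library. Its log2 fold change was -0.64 (SE 0.26, limma adjusted p = 0.0695) in WT and -0.99 (SE 0.26, adjusted p = 0.00454) in Trem2-/- mice. The WT call was lost without WT D0 replicate 3 (-0.41) or WT D7 replicate 4 (-0.49).

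The pattern of Nkg7 over the 16 libraries was compared with that of 13163 other genes by the root mean square difference of standardized log2 values. The most alike were Mpo (0.119), Rps6ka1 (0.146) and Elane (0.149). Mpo and Elane encode enzymes of the primary granules of neutrophils and their bone marrow precursors. Mean CPM of Mpo were 1067 ± 563 in WT D0, 272 ± 87.3 in WT D7, 1342 ± 919 in Trem2-/- D0 and 190 ± 26.3 in Trem2-/- D7 (SD, n = 4). Other NK cell genes, named after their values were seen, spanned a wide range of levels: group means of the receptor gene Ncr1 were between 0.117 and 0.582 CPM, below the filter, those of the receptor gene Klrk1 between 1.90 and 6.15 CPM, and those of Il2rb, an IL-2 and IL-15 receptor chain, between 10.0 and 34.5 CPM. The part of neutrophil precursors in the Nkg7 values was not tested. For Cd3e the most alike genes were Pim1 (0.368), Nfkbie (0.371) and Mif4gd (0.380), a looser match.

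Next, Trem2-/- and WT joints were compared at D7, which asks whether loss of Trem2 changes these genes after injury. Stat4, Il7r, Tcf7 and Lck passed the rule, all lower in Trem2-/- mice, against 4.53% of genes tested that were lower by the rule. None of the 10 had an adjusted p under 0.05 in limma (lowest 0.441), in edgeR or in voom with limma, and 4 had an unadjusted p under 0.05 in limma. For Stat4, Il7r, Tcf7 and Cd8a, all 4 Trem2-/- libraries were below all 4 WT libraries, which 4.78% of genes tested showed. The exact two-sided permutation p of each of these 4 was 0.0286, the smallest that 4 against 4 mice allow. The median log2 fold change of the 10 genes was -0.39, against 0.01 for all genes tested. Markers of other leukocytes were lower as well: 5 of 8 pan-leukocyte genes (median -0.64) and 7 of 8 B cell genes (median -0.90) by the rule. So were 3 of 8 macrophage genes (median -0.39), but none of 8 neutrophil genes (median -0.51). No gene of these 4 lists was higher by the rule, and none had an adjusted p under 0.05 in limma. Tcf7 is also among the genes the study singled out on these mice, so its inclusion is not independent evidence.

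At D7 Stat4 was 2.43-fold lower in mean CPM in Trem2-/- mice, with a log2 fold change of -1.12 (SE 0.27, limma adjusted p = 0.441). The corresponding log2 fold changes were -0.65 for Il7r (SE 0.25, adjusted p = 0.611), -0.51 for Lck (SE 0.23, adjusted p = 0.653) and -0.46 for Tcf7 (SE 0.20, adjusted p = 0.635). Stat4 passed the rule under each left-out library. The count of called genes was 1 without WT D7 replicate 3 and 2 without WT D7 replicate 1, Trem2-/- D7 replicate 2 or Trem2-/- D7 replicate 3. Lck lost its call in 6 of the 8 leave-outs, Tcf7 in 4 and Il7r in 2. Among genes not called, Cd8a differed by -0.31 (95% CI -0.80 to 0.17), Nkg7 by -0.48 (95% CI -1.37 to 0.41), Cd3e by -0.31 (95% CI -0.76 to 0.15), Klrd1 by -0.22 (95% CI -0.76 to 0.33) and Cd3g by -0.12 (95% CI -0.64 to 0.40). Cd4 alone was higher, by 0.15 (95% CI -0.19 to 0.48).

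**Figure D3:**
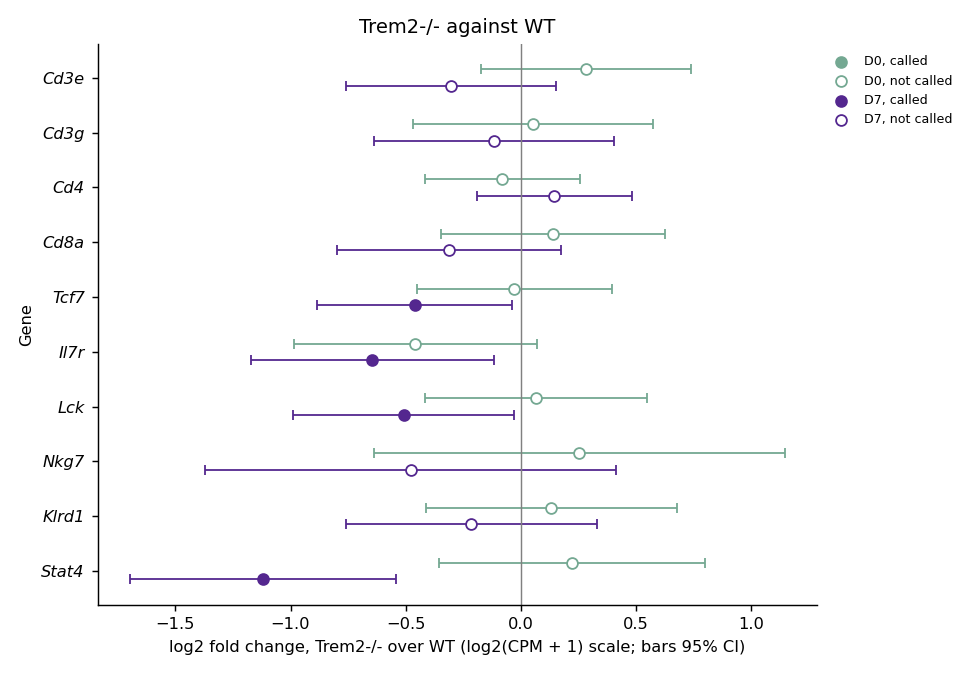
log2 fold change of Trem2-/- over WT at D0 and at D7 for each gene, on the log2(CPM + 1) scale, with 95% confidence intervals, and filled points for genes called by the study's rule. At D7 the intervals of Stat4, Il7r, Lck and Tcf7 lie below 0, and at D0 every interval includes 0.

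In uninjured joints the genotypes could not be separated for any of the 10 genes. None passed the rule in limma, edgeR or voom with limma, and none had an unadjusted limma p under 0.05, where 2.15% of genes tested passed in either direction. Differences in log2 fold change ran from -0.46 for Il7r (95% CI -0.99 to 0.07) to 0.28 for Cd3e (95% CI -0.18 to 0.74), and the interval of Nkg7 was the widest (-0.64 to 1.14). With 1 library left out, 1 gene passed without WT D0 replicate 1 or Trem2-/- D0 replicate 1 (Il7r, -0.72 and -0.62), and 1 without WT D0 replicate 3 or Trem2-/- D0 replicate 3 (Cd3e, 0.46 and 0.48).

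Whether injury acted differently in the genotypes was tested as an interaction. Stat4 passed the rule, with a fall from D0 to D7 that was 1.34 larger on the log2 scale in Trem2-/- mice (interaction -1.34, SE 0.38, limma adjusted p = 0.579), against 5.02% of genes tested with a lower interaction. It passed under each left-out library, at -1.51 to -1.09. The other 9 genes did not pass, with interactions between -0.73 for Nkg7 (95% CI -1.99 to 0.53) and 0.23 for Cd4 (95% CI -0.25 to 0.70). The count of called genes was 3 without WT D0 replicate 3 or Trem2-/- D0 replicate 3 and 2 without WT D7 replicate 4. Besides Stat4, these were Cd3e (-0.76) and Lck (-0.74) without WT D0 replicate 3. They were Cd3e (-0.78) and Tcf7 (-0.66) without Trem2-/- D0 replicate 3, and Lck (-0.78) without WT D7 replicate 4. None of the 10 had an adjusted p under 0.05 in those limma fits. A call in Trem2-/- mice alone, as for Cd3e in the limma fit, is therefore not shown to differ between genotypes. Lower interactions by the rule were also found in 5 of 8 pan-leukocyte genes (median -0.89) and 3 of 8 macrophage genes. Among the pan-leukocyte genes, Ptprc, which encodes CD45, stood at -1.10 (SE 0.35, limma adjusted p = 0.579). No B cell or neutrophil gene passed, and 2 of 8 fibroblast genes had a higher interaction.

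A wider list of T and NK cell genes, which holds none of the 10, was tested in the same fit. Of its 114 genes, 94 were listed and 88 tested. Some of those tested averaged under 1 CPM in WT D7 and Trem2-/- D7, such as Cd3d (0.925 and 0.516), Klre1 (0.599 and 0.371) and Cd8b1 (0.454 and 0.121). Such genes can reach the filter of 1 CPM in 4 libraries mainly through D0 libraries, which favours lower D7 values in the counts below. How many did so was not counted. In WT, 39 were lower and 2 higher at D7 by the rule (median log2 fold change -0.47), and in Trem2-/- mice 64 were lower and 4 higher (median -0.91). Of all genes tested, 18.2% were lower and 19.3% higher in WT, and 27.9% were lower and 26.5% higher in Trem2-/- mice. The counts of the smaller lists that follow are to be read against these shares, and those of 6 of 19 and 3 of 8 in WT rest on few genes. Without WT D0 replicate 3 the WT count was 26 rather than 41. Genes of the T cell receptor and its signalling gave 14 lower and 1 higher of 20 in WT, and 18 lower and 2 higher in Trem2-/- mice. NK receptors and cytotoxic granule genes gave 8 of 19 lower in WT and 17 of 19 lower in Trem2-/- mice. Transcription factors and homing genes gave 6 of 19 lower in WT and 12 lower with 1 higher in Trem2-/- mice, IL-7, IL-12 and IL-15 signalling genes 8 and 13 of 23 lower, and helper, regulatory and gamma-delta genes 3 and 5 of 8 lower with 1 higher in each.

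The largest falls in this wider list belonged partly to genes that other blood cells also use. In WT they were Ikzf1, a lymphoid and myeloid transcription factor (-1.16), Gzma, a granule protease of NK and cytotoxic T cells (-1.15), and Il12a, an IL-12 subunit made by antigen-presenting cells (-1.11). In Trem2-/- mice they included Ikzf1 (-2.15) and Il18rap, an IL-18 receptor chain (-1.92). Thy1 rose in both genotypes, by log2 1.82 in WT and 2.33 in Trem2-/- mice, and so did Rora, by 1.28 and 1.87. Thy1 is carried by fibroblasts as well as T cells, and Rora is expressed widely. Fyn, a Src family kinase, rose in Trem2-/- mice by 0.45 (SE 0.15, limma adjusted p = 0.0198).

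At D7, 24 of the 88 wider genes were lower in Trem2-/- than in WT mice by the rule, none was higher and none had an adjusted p under 0.05 in limma, edgeR or voom with limma, where 4.53% of all genes tested were lower by the rule. The largest differences were in Gzmb, a granule protease (-1.10), Ikzf3, a lymphoid transcription factor (-1.09), and Lef1, of the same TCF/LEF family as Tcf7 (-1.05). At D0 only Klf2, a transcription factor of resting lymphocytes and of endothelium (0.80), and Il2ra, the IL-2 receptor alpha chain (-0.41), passed, a share close to the 2.15% of all genes tested. Leaving out WT D0 replicate 1, 2 or 4 gave 6, 4 and 0 calls, and leaving out Trem2-/- D0 replicate 2 gave 1. In the interaction 16 were lower, against 5.02% of all genes tested, and without Trem2-/- D0 replicate 3 the count was 29. Among the 16 were Lcp2, an adaptor of the T cell receptor and of receptors in other leukocytes (-1.07), and Ikzf3 (-1.03). Lcp2 had a mean of 128 CPM in WT D0, against 1.51 CPM for Cd3e, and which cells its reads came from was not tested.

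**Figure D4:**
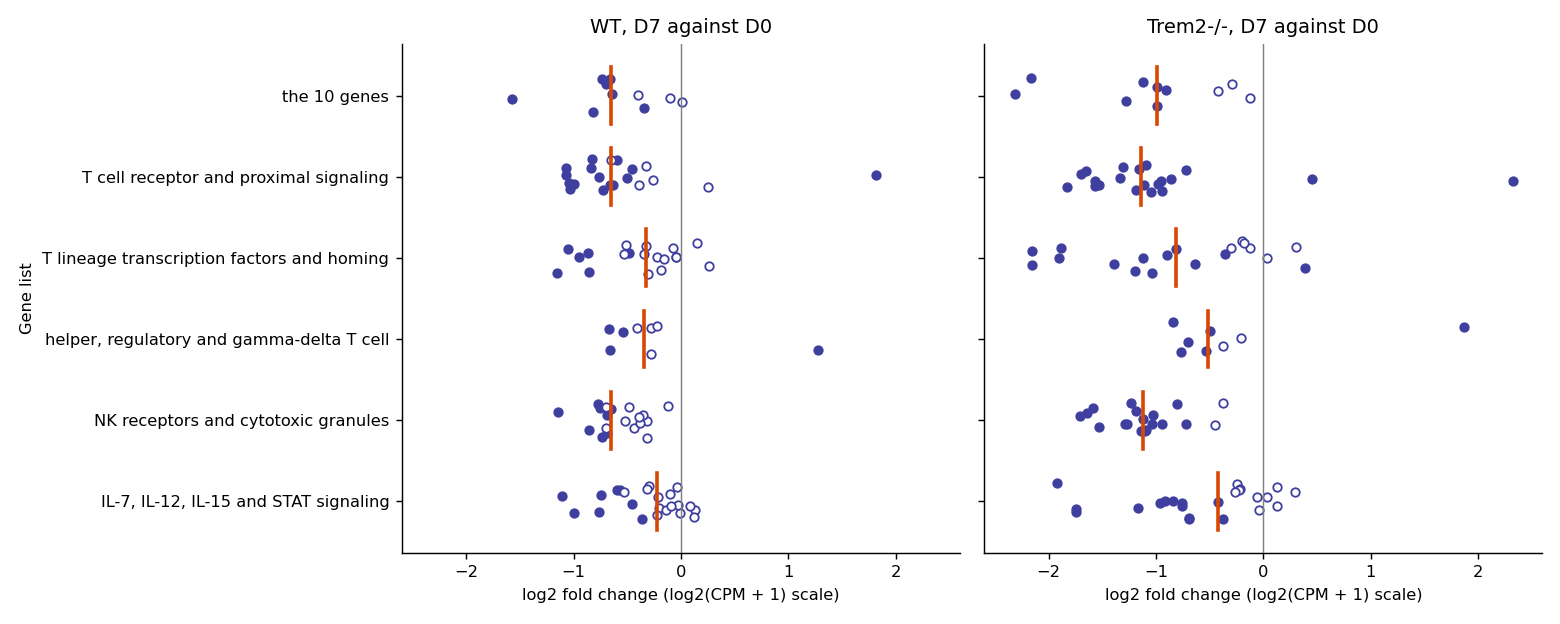
log2 fold change from D0 to D7 on the log2(CPM + 1) scale, with 1 point per gene, for the 10 genes and 5 lists of other T and NK cell genes in WT and Trem2-/- mice, with filled points for genes called by the study's rule and a bar at each list's median. Medians lie below 0 in every list and both genotypes, and Thy1 (1.82 and 2.33) and Rora (1.28 and 1.87) are the points far to the right.

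Markers of other cells moved with these genes, and it is not stated whether a CD45 separation came before these libraries. Among all genes tested, 18.2% in WT and 27.9% in Trem2-/- mice were lower at D7 by the rule, and 19.3% and 26.5% were higher. All 8 pan-leukocyte genes were lower at D7 in Trem2-/- mice and 7 of 8 in WT (median log2 fold changes -1.88 and -0.87), and their summed level was 2202 to 4606 CPM in WT D0, 1311 to 2664 in WT D7, 2777 to 4950 in Trem2-/- D0 and 968 to 1196 in Trem2-/- D7. Ptprc, which encodes the leukocyte antigen CD45, had means of 514 ± 151 CPM in WT D0, 305 ± 95.7 in WT D7, 633 ± 145 in Trem2-/- D0 and 173 ± 27.3 in Trem2-/- D7 (SD, n = 4). All 8 B cell genes (medians -1.33 in WT and -2.03 in Trem2-/- mice) and all 8 neutrophil genes (-1.47 and -2.26) were lower as well. Macrophage genes were higher in 7 of 8 in WT (median 1.66) and in 5 of 8, with 1 lower, in Trem2-/- mice (median 1.14), and fibroblast genes in 6 of 8 in WT (1.76) and 7 of 8 in Trem2-/- mice (2.79). The 10 genes together summed to 67.6 to 151 CPM in WT D0, 59.5 to 90.3 in WT D7, 97.7 to 160 in Trem2-/- D0 and 39.2 to 41.5 in Trem2-/- D7. None of the pan-leukocyte, B cell, neutrophil, macrophage or fibroblast genes was at 0 in all libraries of a group.

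**Figure D5:**
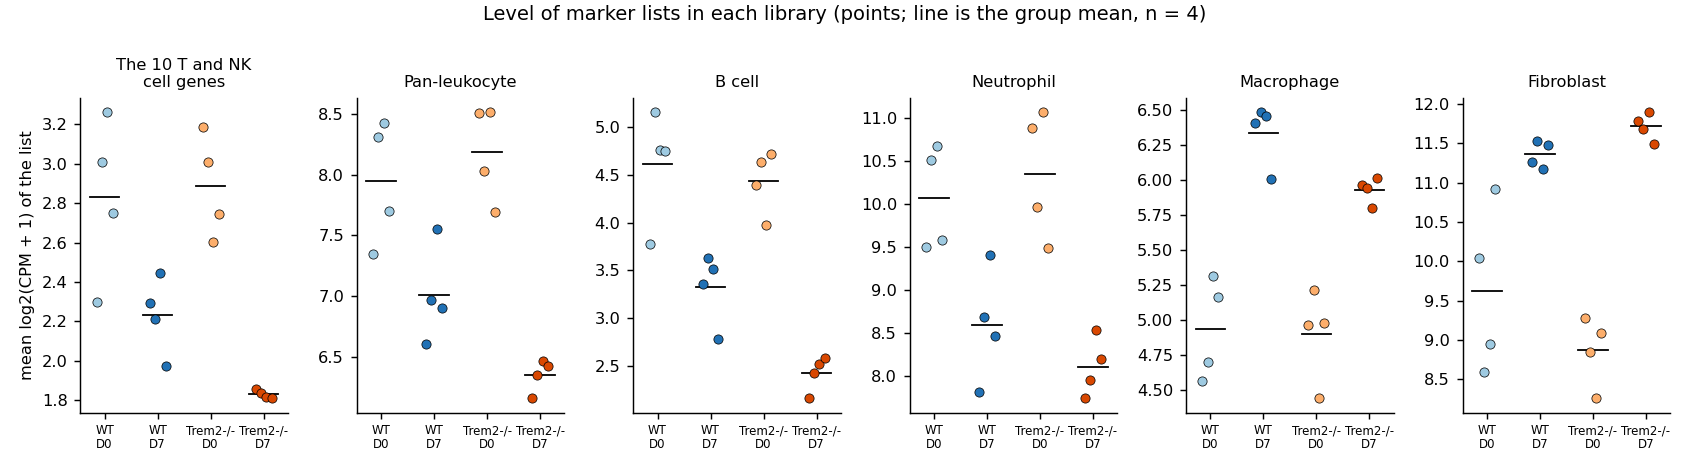
Mean log2(CPM + 1) of the 10 genes and of 5 marker lists in each library, by group, with the group mean. The vertical axes differ between panels and do not start at 0. The 10 genes, pan-leukocyte, B cell and neutrophil lists have their lowest group means in Trem2-/- D7, and the macrophage and fibroblast lists are higher at D7 than at D0.

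With the pan-leukocyte score added to the fit as a covariate, an alternative chosen after seeing the data, none of the 10 genes passed the rule for injury in either genotype. Under this fit 17.9% of all genes tested passed in WT and 20.8% in Trem2-/- mice, in either direction. Nkg7 then had a log2 fold change of -0.36 in WT and 0.06 in Trem2-/- mice, Lck -0.43 and -0.74, and Cd8a -0.46 and -0.72. At D7 only Stat4 of the 10 was called, lower in Trem2-/- mice, at -0.52 (SE 0.19, limma adjusted p = 0.331). Il7r (-0.42), Tcf7 (-0.43) and Lck (-0.32) were not called. This 1 call of 10 is near the 9.88% of all genes tested that passed in either direction. The Stat4 interaction became -0.52 and no longer passed. The score itself differed between D0 and D7, so its part in these results and that of the time point cannot be told apart. At D7 it ranged from 6.60 to 7.55 in WT libraries and from 6.16 to 6.47 in Trem2-/- libraries. Its part and that of genotype at D7 cannot be told apart either.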

How the data were processed

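Cells of 16 knee joints were profiled by bulk RNA-seq, 4 per group. The deposited signal values were made by the authors by aligning reads to mm10 with STAR, counting with featureCounts and TMM normalization with edgeR. Versions, annotation and strand setting are not given in the sources used here. The values are CPM, and 100% of them were whole multiples of the value of 1 read (tolerance 0.01). The limit of 3 reads covers counting error only, and 95% confidence intervals come from the spread between libraries in the limma fit. Whether same-group samples were handled in separate preparations is not stated, so p-values measure the spread between these samples.

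From the deposited values, log2(CPM + 1) of 13173 genes reaching 1 CPM in 4 or more libraries was fitted with limma 3.58.1 (R 4.3.3, 1 factor of 4 groups, eBayes with trend) with Benjamini-Hochberg adjustment over all genes tested. The study's call rule asks for an unadjusted p under 0.05 with a fold change above 1.25. The added 1 CPM shrinks the fold changes of low genes. Single genes were also compared by an exact two-sided permutation test. edgeR 4.0.16 and voom were run on recovered reads as alternatives, and scripts were tested on simulated data. Gene positions come from GENCODE M21 (GRCm38) and promoters from RefSeq (11 windows for 8 of the 10 genes). Named genes are the 10, Trem2, Ptprc and the 3 genes most alike to Cd3e and to Nkg7. From the wider list come the 3 called genes with the largest fold per direction (mean of at least 2 CPM). Ncr1, Klrk1 and Il2rb were named outside this rule, after their values were seen. The 10 genes and the lists were chosen with earlier results of these data known. Columns of no sample numbered 0. The main fit did not treat replicate numbers as pairs, and whether they mark pairs or shared preparations is not stated. A gene that the rule also names is not reported here.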

Additional observations from a re-analysis of the deposited data

Results flagged for a closer look

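Among 40 tests of a gene in a group of 4 libraries, 3 had 1 library farther from the others than Dixon's limit for 4 values, where chance gives about 2. Lck in WT D7 replicate 4 was 3.21 CPM, against 6.34 to 6.62 CPM in the other WT D7 libraries (gap 0.939 of the range). Cd3e was lowest in the same library, at 0.594 CPM against 0.905 to 0.965 CPM (gap 0.852). Stat4 in Trem2-/- D0 replicate 1 was 70.6 CPM, against 38.8 to 42.6 CPM in the others (gap 0.845).

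The Stat4 interaction (log2 -1.341, limma adjusted p = 0.579) passed the study's rule but not the adjusted threshold. Of all genes tested, 5.02% passed the rule with a lower interaction. With the pan-leukocyte score as covariate the Stat4 interaction was -0.52 and did not pass.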

How the results depend on the processing

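Limits first: the T cell receptor genes rest on few reads per library, 4 mice per group limit the genotype comparisons, and none of the 10 genes passed an adjusted p for genotype. Shares in this section are of all genes called in either direction under the same setting. Among the 10 genes, the number called for injury in WT was 3 with a pseudocount of 5 and 3 with a filter on a mean of 5 CPM, which left 5 of the 10 tested, and in Trem2-/- mice it was 3 with that filter. The shares of all genes were 30.6% in WT with that pseudocount, and 38.1% in WT and 54.8% in Trem2-/- mice with the filter. For genotype at D7 it was 2 with a pseudocount of 5 (3.94% of all genes) and 2 with a fold change over 1.5. For the interaction it was 2 with a pseudocount of 0.1 (7.96% of all genes), Stat4 and Cd3e (-1.12). With the pan-leukocyte score as covariate, chosen after seeing the data, the counts were 0 for injury in WT, 0 for injury in Trem2-/- mice, 1 for genotype at D7, 1 for genotype at D0 and 0 in the interaction. The shares of all genes, in the same order, were 17.9%, 20.8%, 9.88%, 2.79% and 9.34%. In the wider list, the mean filter left 46 genes tested. It gave 21, 33, 15 and 1 genes for injury in WT, injury in Trem2-/- mice, genotype at D7 and genotype at D0. The shares of all genes were 38.1%, 54.8%, 5.73% and 1.88%. The covariate gave, of 88 genes, 10 for injury in WT, 15 for injury in Trem2-/- mice, 6 at D7 and 4 for the interaction. These counts are to be read against the covariate shares given above. A pseudocount of 5 gave 12 at D7 (3.94% of all genes) and 1 at D0 (1.24%). At D0 the count was also 0 with quantile normalization, 0 with only the groups compared and 1 with a fold change over 1.5. The cause of these changes was not tested, apart from the smaller number of genes under the filter.

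Replicate numbers came from the titles, and in no pair of groups did all 4 same-numbered pairs deviate together (r over 0.1 in 1 to 3 of 4). With the replicate number as a block, the 10 genes gave 7, 7, 3, 0 and 1 calls for the comparisons in the same order, and the wider list 40, 68, 22, 1 and 18. Tcf7 lost its call at D7 under the block.

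Directions turned with the covariate for Cd3g at D7 (0.060), at D0 (-0.012) and in the interaction (0.072), for Cd4 in Trem2-/- injury (0.032), for Il7r in WT injury (0.21), Trem2-/- injury (0.33) and the interaction (0.12), and for Lck at D0 (-0.0042). They also turned for Nkg7 in Trem2-/- injury (0.060), at D7 (0.37), at D0 (-0.056) and in the interaction (0.42), for Klrd1 in Trem2-/- injury (0.22), at D7 (0.22), at D0 (-0.026) and in the interaction (0.24), and for Stat4 in WT injury (0.041). Tcf7 turned with quantile normalization in WT injury (-0.0084) and with edgeR at D0 (0.014). None of these turned values passed the rule.

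With 1 library left out in turn, the 10 genes gave 1 to 4 calls at D7, 0 to 1 at D0 and 1 to 3 in the interaction, and the wider list gave 26 to 53 for injury in WT, 0 to 6 at D0 and 12 to 29 in the interaction. Fold changes that turned ran from -0.26 to 0.0059 for Cd3g at D7 and, at D0, from -0.077 to 0.29 for Cd3g, -0.18 to 0.052 for Cd4, -0.036 to 0.30 for Cd8a, -0.15 to 0.20 for Tcf7, -0.098 to 0.23 for Lck, -0.13 to 0.54 for Nkg7 and -0.075 to 0.36 for Klrd1. They ran from -0.084 to 0.099 for Tcf7 and -0.36 to 0.046 for Il7r in WT injury, and from -0.36 to 0.072 for Il7r in the interaction.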

Other observations

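The following counts are to be read against the 18.2% of all genes tested that were lower after injury by the rule in WT and the 27.9% in Trem2-/- mice, and against the 19.3% and 26.5% that were higher. Of 6 genes of T progenitors and thymocytes, several of which early lymphoid cells of bone marrow also express, 3 were lower by the rule in WT (median log2 fold change -0.57) and 5 in Trem2-/- mice (median -0.76). Of 8 pro-B and pre-B cell genes, 6 were lower in WT (median -1.40) and 6 were lower with 1 higher in Trem2-/- mice (median -1.54). Of 7 plasmacytoid dendritic cell genes, 5 were lower in WT (median -1.14) and 5 were lower with 1 higher in Trem2-/- mice (median -1.85). Conventional dendritic cell genes gave 1 and 3 lower of 7 (medians -0.36 and -0.22), and skeletal muscle genes 2 and 5 lower of 8 (medians -0.76 and -1.26), so that the WT counts of both lists were near the share of all genes. All 7 chondrocyte genes tested were higher in both genotypes (medians 3.74 and 4.88).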
